A study of Mus musculus with 2 samples.

Results

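The blood-testis barrier junction genes examined here were 9 mouse genes: the claudins Cldn3, Cldn5 and Cldn11, occludin (Ocln), the adhesion molecule Jam2, the scaffold genes Tjp1 and Tjp3, N-cadherin (Cdh2) and connexin 43 (Gja1). They were chosen by name, as genes of tight, adherens and gap junctions, from a table of 44002 rows, and all 9 were found by their Entrez gene IDs. The tissue was testis from balb/c mice aged 45 days after birth, read as poly(A) RNA in 2 libraries. One came from control mice and the other from mice with BPA exposure, where BPA is bisphenol A, an estrogen-like compound used to make plastics. Each library mixed material from 3 samples, which leaves no measure of how far animals of a group differ. The control group is known only from a title without a treatment, and no source used here gives the dose, route or length of exposure.

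The barrier is formed by neighbouring Sertoli cells, the somatic nurse cells of the seminiferous tubule, and it divides the epithelium into a compartment open to the blood and one in which meiosis and spermatid development take place. Claudins and occludin seal the space between the cells, and zonula occludens scaffolds such as Tjp1 tie them to actin. N-cadherin holds the cells together at adherens junctions, and connexin 43 forms channels between them and with germ cells. Cldn11 is needed for the Sertoli cell barrier, Cldn3 is an androgen-responsive claudin of newly formed junctions, and Cldn5 is best known from blood vessels.

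Values are CPM, the reads of a gene scaled to a common library total. Listed values stood for 41711330 reads in the control library and 45162887 in the BPA library, and 18796 and 18571 genes were listed above 0. Sertoli cell markers were well represented, at a summed 1662 CPM in the control library and 1853 CPM in the BPA library, and germ cell markers summed to 9922 and 10105 CPM. Adipose tissue markers differed most, with sums of 88.9 and 27.4 CPM. All 9 had a log2 ratio below 0, and 7 were 2-fold or more lower in the BPA library by the rule given below, beside 1.95% of all genes. Fold values are ratios of CPM, BPA over control, with exact (Clopper-Pearson) 95% bounds computed from the reads. These bounds reflect counting error of the reads alone, and no difference has a replicate check. Reads copied by PCR do not stand for separate molecules, so the bounds can be too narrow even for that error. In whole testis, fewer cells of a type and less RNA per cell cannot be told apart.

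Sequence upstream of the start sites was available for 7 of the 9 genes, in 9 windows of 250 bases from RefSeq (GRCm38.p6). The windows of Cldn11, the claudin with the larger difference among those above 1 CPM, and of the upstream start site of Tjp3, the gene with the largest difference among the 8 at that level, are shown 5′ to 3′ on the strand of the gene. Capitals mark the estrogen response half-site GGTCA and the CCAAT box, each on either strand. The Cldn11 window lies at chr3:31149670-31149919 on the plus strand, and the Tjp3 window at chr10:81291582-81291831 on the minus strand.
Cldn11: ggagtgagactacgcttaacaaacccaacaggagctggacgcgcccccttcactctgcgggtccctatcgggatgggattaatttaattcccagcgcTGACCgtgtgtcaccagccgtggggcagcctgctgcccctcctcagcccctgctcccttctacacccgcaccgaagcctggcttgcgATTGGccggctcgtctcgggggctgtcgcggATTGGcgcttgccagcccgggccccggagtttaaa
Tjp3: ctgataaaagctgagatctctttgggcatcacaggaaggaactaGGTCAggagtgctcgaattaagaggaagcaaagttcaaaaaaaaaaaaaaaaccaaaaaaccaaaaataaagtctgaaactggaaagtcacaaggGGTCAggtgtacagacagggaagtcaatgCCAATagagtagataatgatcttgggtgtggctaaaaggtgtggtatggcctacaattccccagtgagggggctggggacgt
The Cldn11 window held 1 half-site, in the reverse direction, and 2 CCAAT boxes, at a GC content of 63.6%. The Tjp3 window held 2 half-sites and 1 CCAAT box at a GC content of 43.2%, against a median of 52.4% over all 32851 windows. The other Tjp3 window, at 81291268 to 81291517 on chromosome 10, which overlaps an exon of the gene and is not printed, held neither motif at a GC content of 57.2%. A half-site was found in 5 of the 9 windows and in 35.2% of all windows, and a CCAAT box in 4 of 9 and in 33.8% of all. The full estrogen response element, searched as this half-site followed after any 3 bases by its reverse complement, was in none of the 9 windows and in 0.0639% of all windows. The androgen response half-site AGAACA was in none of the 9 and in 16.1% of all. These matches describe the letters in the windows and not sites of binding, and the pair of Ocln windows overlap.

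Of the 9 genes, 8 reached 1 CPM in at least 1 library and 7 of these lay within 2-fold, with Tjp3 lower in the BPA library and none 2-fold higher. Over all 19389 genes at that level, 3.28% were 2-fold or more apart, 1.95% lower and 1.32% higher in the BPA library. Here and below, 2-fold apart means a log2 ratio of 1 or more in size after a pseudocount of 0.1 CPM was added to both values, so a low gene can have a CPM ratio just over 2 and not count. The median log2 ratio over the 8 genes was 0.02, against 0.0041 over all genes. At 1.5-fold, 2 of the 8 genes were apart, Tjp3 and Cdh2, against 9.64% of all genes. The counting interval of the ratio left out 1 for 5 genes: Cldn11, Jam2 and Gja1 on the higher side and Cdh2 and Tjp3 on the lower side. The share of all genes with such an interval was not counted, so these 5 are not a result about the 9 genes as a set. The authors' deposited table calls 28 of 29279 genes with a q-value, and none of the 9, which each have a deposited q-value of 0.99996; with so few calls in all, this says nothing particular of the 9.

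**Figure D1:**
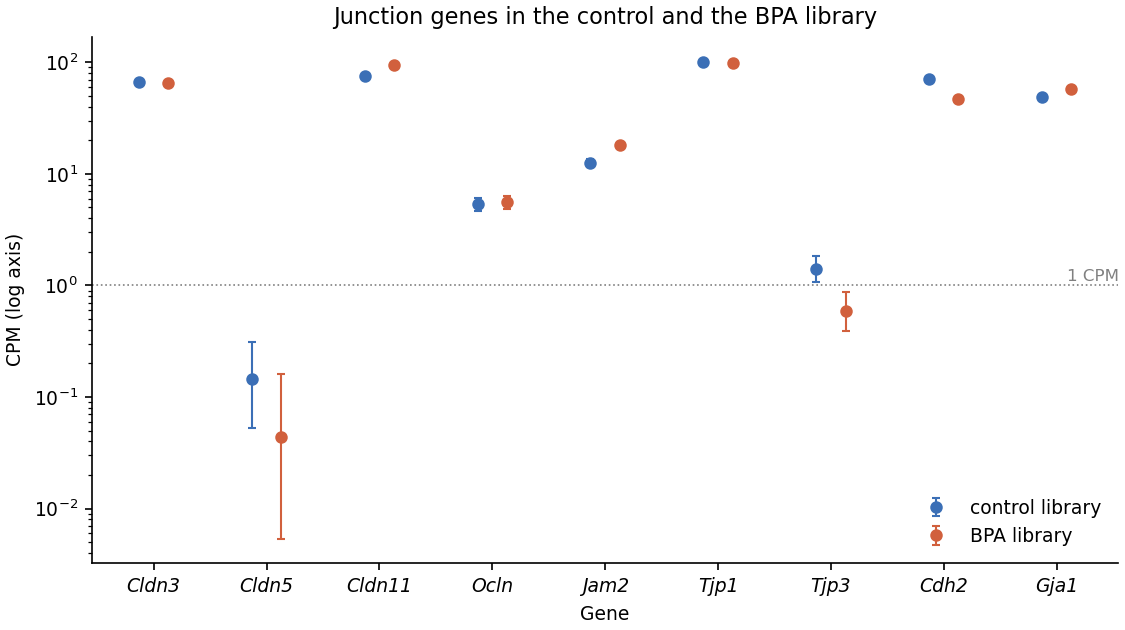
CPM of the 9 junction genes on a log axis in the control library (blue) and the BPA library (red), with exact 95% Poisson intervals of the reads as bars. Cldn3, Cldn11, Tjp1, Cdh2 and Gja1 stand between 46.6 and 100.4 CPM in both libraries, and Cldn5 lies below 1 CPM in both.

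Cldn11, the claudin that forms the strands of the Sertoli cell tight junction, stood at 75.0 CPM in the control library (3136 reads) and 95.4 CPM in the BPA library (4331 reads). That is 1.27-fold higher in the BPA library, with a counting interval of 1.21 to 1.33. Of 3366 other genes within 2-fold of its mean CPM, 2.26% were at least as far apart in either direction. The gene spans 31149920 to 31164326 on chromosome 3 (GRCm38), with 3 merged exons. Few genes of its level were that far apart, and the difference stayed inside the 2-fold limit.

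Cldn3, the androgen-responsive claudin, stood at 67.0 CPM in the control library (2802 reads) and 64.9 CPM in the BPA library (2947 reads). The ratio was 0.969, with an interval of 0.920 to 1.02 that holds equal levels. It is a gene of 1 exon at 134986214 to 134987476 on chromosome 5, and 40 bases of that exon overlap the antisense gene Wbscr25 on the other strand. The ratio of Cldn3 lay below that of Cldn11, and their counting intervals do not overlap.

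Cldn5, a claudin of blood vessels, is listed at 0 in both libraries, as are all values under 1 CPM. Its deposited fold change and p-value correspond to 6 reads in the control library (0.144 CPM) and 2 in the BPA library (0.0441 CPM). The ratio of 0.307 has an interval of 0.0303 to 1.72, so a difference was not detectable at this depth. Endothelial markers, the other transcripts of vessel cells, had a median log2 ratio of -0.03 over the 15 at 1 CPM or more. None of the 15 was 2-fold apart, which at 3.28% of all genes is near the background. All 17 markers of the list summed to 103.9 CPM in the control library and 102.5 CPM in the BPA library. Pecam1, an adhesion molecule of endothelium, stood at 3.64 and 3.55 CPM, and Cdh5, the cadherin of endothelium, at 6.67 and 7.67 CPM. Single markers went in both directions, with intervals that left out 1. The ratio was 1.42 for Esam (1.11 to 1.81), 0.844 for Kdr (0.714 to 0.998) and 0.854 for Sox17 (0.772 to 0.944).

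Ocln, the occludin of the tight junction, stood at 5.33 CPM in the control library (223 reads) and 5.55 CPM in the BPA library (252 reads). The ratio of 1.04 has an interval of 0.866 to 1.25, and 84.8% of 5164 genes of like mean were at least as far apart. The gene spans 100496504 to 100552718 on chromosome 13. The difference was smaller than its counting error.

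Jam2, an adhesion molecule of Sertoli cells, germ cells and endothelium, stood at 12.6 CPM in the control library (526 reads) and 18.1 CPM in the BPA library (822 reads). BPA exposure went with a 1.44-fold higher value (1.29 to 1.61), the largest ratio on the higher side among the 9 genes. Of 5136 genes of like mean, 4.03% were at least as far apart. Jam2 spans 84774123 to 84826380 on chromosome 16. Other adhesion molecules of its family did not share one value: F11r (JAM-A) was 1.27-fold higher (1.16 to 1.38), at 23.0 and 29.2 CPM, whereas Jam3, which partners Jam2, had a ratio of 1.04 (0.962 to 1.11), at 32.6 and 33.8 CPM. Esam, an endothelial relative, stood at 2.70 CPM in the control library and 3.83 CPM in the BPA library, 1.42-fold higher (1.11 to 1.81).

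Tjp1, which encodes the scaffold ZO-1, held the most reads of the 9, at 100.4 CPM in the control library (4196 reads) and 99.4 CPM in the BPA library (4509 reads). Its ratio was 0.990 with an interval of 0.949 to 1.03, and 88.3% of 3096 genes of like mean were at least as far apart. Tjp1 spans 65296165 to 65527850 on chromosome 7.

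Tjp3, which encodes ZO-3, a scaffold of epithelia, was the only one of the 8 that reached the 2-fold limit. It stood at 1.41 CPM in the control library (59 reads) and 0.595 CPM in the BPA library (27 reads), where the deposited value is written as 0 and was recovered from the deposited fold change. It was 2.37-fold lower in the BPA library, with a counting interval of 1.48 to 3.89 and a log2 ratio of -1.12. The nearer end of that interval lies inside 2-fold, and with a pseudocount of 1 CPM the log2 ratio was -0.60, which ends the call. Of 3423 genes of like mean, 8.74% were at least as far apart, and genes at that level enter only through the library in which they are higher. Tjp3 spans 81273188 to 81291581 on chromosome 10, and 40 bases of its exons overlap Apba3 on the other strand, which stood at 42.9 and 40.1 CPM.

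Epithelial markers did not share one value. Of the 12 in the list 7 reached 1 CPM, and 1 of these was 2-fold lower in the BPA library, beside 1.95% of all genes. That marker was Krt19, a keratin of simple epithelia, at 1.05 CPM in the control library (44 reads) and 0.154 CPM in the BPA library (7 reads), 6.82-fold lower (3.05 to 17.96). Krt8, a further keratin of simple epithelia, stood at 11.7 and 7.38 CPM, 1.58-fold lower (1.37 to 1.82). Epcam, an adhesion molecule of epithelia, stood at 35.6 and 35.9 CPM, and Cdh1, E-cadherin, at 1.27 and 1.26 CPM. Elf3, Esrp1 and Grhl2, regulators of epithelial genes, had ratios of 0.826, 0.984 and 0.969, each with an interval that holds 1. Of the 5 markers below 1 CPM, Krt18 had 14 reads in the control library and 1 in the BPA library, Cdh16 11 and 1, Krt7 5 and 1, St14 16 and 17, and Pax8 2 and 2. The 12 summed to 67.8 CPM in the control library and 61.4 CPM in the BPA library, and the 6 mesothelial markers to 19.0 and 17.9 CPM. Epcam was the largest part of the first sum, and Muc16, at 15.2 and 13.3 CPM, of the second. Other mesothelial markers went in both directions. Upk3b had 14 reads in the control library and 2 in the BPA library, and Lrrn4 stood at 2.22 and 3.59 CPM. The sums thus do not show that each marker was near equal. The part of such cells in the Tjp3 difference was not tested.

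Cdh2, the N-cadherin of Sertoli and germ cells, stood at 71.5 CPM in the control library (2988 reads) and 46.6 CPM in the BPA library (2114 reads). It was 1.53-fold lower in the BPA library, with a counting interval of 1.45 to 1.62. Of 3951 genes of like mean, 1.01% were at least as far apart. The authors' deposited table gives Cdh2 a p-value of 0.0223, the smallest of the 9, and a q-value of 0.99996. Cdh2 spans 16588877 to 16809246 on chromosome 18. The catenins of cadherin junctions did not all share one value. Beta-catenin (Ctnnb1) stood at 139.2 and 137.6 CPM, alpha-catenin (Ctnna1) at 41.2 and 42.6 CPM and p120 catenin (Ctnnd1) at 74.1 and 76.8 CPM. Each of these ratios had an interval that holds 1. Gamma-catenin (Jup) stood at 69.8 and 64.1 CPM, 1.09-fold lower (1.03 to 1.15). P-cadherin (Cdh3) stood at 5.10 and 3.33 CPM, 1.53-fold lower (1.24 to 1.90).

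Gja1, the main connexin of Sertoli cells, which is also found in Leydig cells, stood at 49.3 CPM in the control library (2060 reads) and 57.7 CPM in the BPA library (2618 reads). It was 1.17-fold higher (1.105 to 1.24), and 9.08% of 4054 genes of like mean were at least as far apart. Gja1 spans 56377300 to 56390419 on chromosome 10, and 0.115% of its 50-base words occur in transcripts of other genes, against none for the other 8. Among other connexins, Gja6 stood at 4.23 and 6.68 CPM, 1.58-fold higher (1.31 to 1.91).

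**Figure D2:**
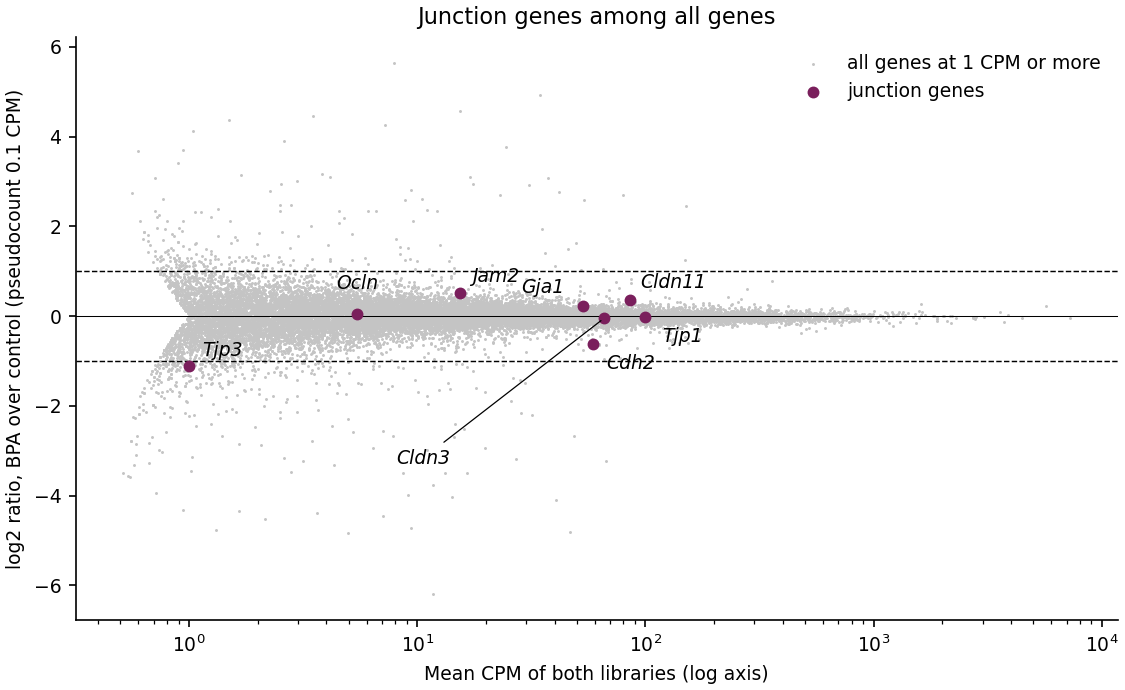
log2 ratio of BPA over control against the mean CPM of both libraries (log axis) for all 19389 genes at 1 CPM or more (grey) and the 8 junction genes among them (purple), with dashed lines at 2-fold. Tjp3 lies in the wide cloud of low genes at -1.12, while Cdh2 at -0.62, Cldn11 at 0.35 and Jam2 at 0.52 lie at the edge of the narrower cloud of their levels.

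Levels of different genes were compared per kilobase of merged exons. In the control library the order was Cldn3 at 53.2 CPM per kilobase, Cldn11 at 40.1, Tjp1 at 12.9, Cdh2 at 8.86, Gja1 at 4.80, Jam2 at 2.08, Ocln at 1.26, Tjp3 at 0.380 and Cldn5 at 0.101 CPM per kilobase. No neighbours in that order had overlapping counting intervals. In the BPA library the order was the same, but 3 pairs of neighbours could not be told apart by their intervals. Cldn3 at 51.6 and Cldn11 at 51.0 CPM per kilobase were one, Cdh2 at 5.78 and Gja1 at 5.62 another, and Tjp3 at 0.160 and Cldn5 at 0.0311 the last. Cldn3 and Cldn11 were thus the most abundant of the 9 genes per length, and Ocln was far below them. With the longest transcript as the length, Cdh2 came to 14.8 CPM per kilobase in the control library and stood above Tjp1 at 14.2, and in the BPA library Gja1 at 14.8 stood above Tjp1 at 14.1 and Cdh2 at 9.62, so the middle of the order depends on the length used.

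**Figure D3:**
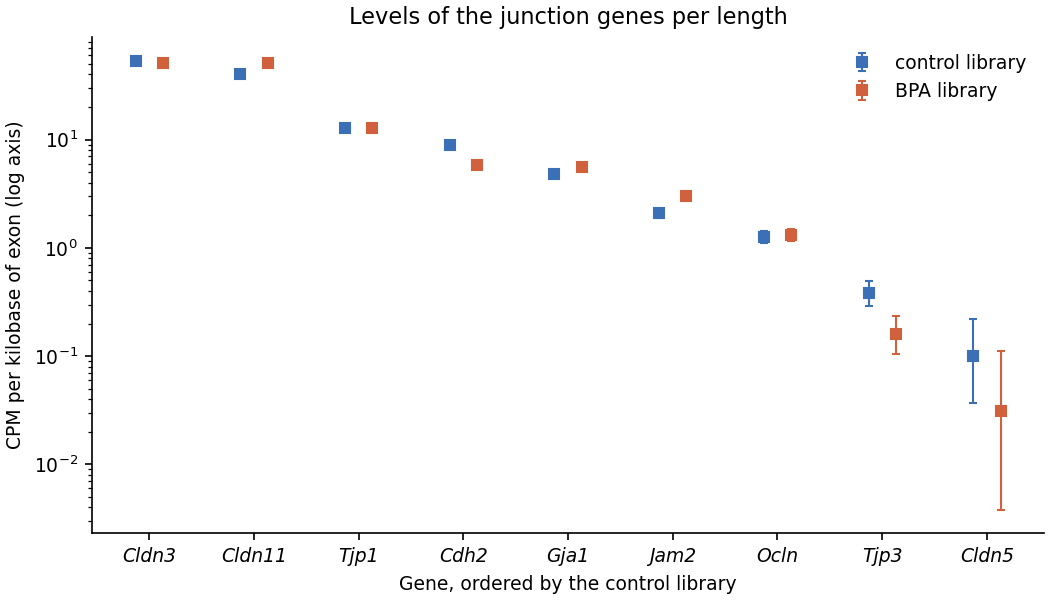
CPM per kilobase of merged exons on a log axis for the 9 genes in both libraries, with exact 95% Poisson intervals of the reads. Cldn3 and Cldn11 stand at 40.1 to 53.2 CPM per kilobase, and Ocln at 1.26 and 1.32.

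The other genes of the same junctions that reached 1 CPM stayed within 2-fold. Of 115 matched genes in 5 lists (tight junction membrane proteins, tight junction scaffolds and polarity proteins, adherens junctions, gap junctions and desmosomes), 81 reached 1 CPM, and none of these was 2-fold apart, beside 3.28% of all genes. At that share few of 81 genes would be apart, so the count of 0 is not read as a result about these lists. Genes below 1 CPM were not called. Of the 115, 107 had reads in at least 1 library. Among those below 1 CPM, the interval left out 1 for Dsg2 (13 reads in the control library and 1 in the BPA library), Cldn2 (27 and 8), Cldn10 (29 and 15) and Gjb6 (4 and 16). The share of all genes below 1 CPM with such an interval was not counted, so these genes are not a result about the lists. The median log2 ratio of the 81 genes was 0.0028, with 42 above 0 and 39 below. All 24 scaffold and polarity genes lay within 2-fold, with a median of -0.03. Amotl2, which links junctions to actin, stood at 8.44 and 12.8 CPM there, 1.52-fold higher (1.33 to 1.74), and Pard3b, a polarity gene, at 6.99 and 9.63 CPM. All 30 adherens junction and ectoplasmic specialization genes lay within 2-fold, with a median of 0.04, and the largest in size besides Cdh3 was Eps8, an actin capping gene, at 9.86 and 12.3 CPM. Among 11 tight junction membrane proteins the median was 0.05, and Cldn13 stood at 2.66 and 1.70 CPM, 1.56-fold lower (1.16 to 2.12). The 10 other gap junction genes had a median of -0.08, and the 6 desmosome genes a median of -0.03, with Pkp2 at 2.61 and 3.35 CPM and Pkp3 at 7.94 and 6.28 CPM, both plaque proteins.

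Genes that regulate the barrier also stayed within 2-fold: 26 reached 1 CPM, none was 2-fold apart, and the median log2 ratio was 0.03. At 3.28% of all genes, 0 of 26 is near the background. Tgfb2, a cytokine that opens the barrier, had few reads, 31 in the control library and 58 in the BPA library, and was 1.72-fold higher (1.096 to 2.76). Cav1, a caveolar protein of endocytosis, stood at 13.1 and 9.32 CPM, 1.41-fold lower (1.24 to 1.60).

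Markers of the cells that carry these junctions differed in their own lists. Of 24 Sertoli cell markers at 1 CPM, 21 lay above 0 and 3 below, beside 9875 of all 19389 genes above 0. The median log2 ratio of these markers was 0.19. The follicle-stimulating hormone receptor gene Fshr stood at 2.25 and 3.64 CPM and the binding globulin gene Shbg at 5.57 and 9.19 CPM, while the homeobox gene Rhox8, the only marker of the list 2-fold apart, stood at 9.04 and 1.43 CPM. Relative to the Sertoli marker median, a scaling added after the data were seen, the log2 ratio was 0.15 for Cldn11, 0.33 for Jam2 and 0.03 for Gja1, against 0.35, 0.52 and 0.23 with the CPM scaled as deposited. On that scale Ocln went from 0.06 to -0.13, Tjp1 from -0.01 to -0.21, Cldn3 from -0.05 to -0.24 and Cdh2 from -0.62 to -0.81. Cdh2 and Cldn11 were thus on opposite sides of 0 under both scalings, whereas the sign of Ocln turned. That scaling put 172 genes of all 19389 at 2-fold higher and 531 at 2-fold lower, in place of 256 and 379. A lean to the higher side was not particular to Sertoli cell markers, but not all lists shared it. Leydig cell markers had a median of 0.13, with 9 of 10 above 0. Peritubular myoid markers had a median of 0.05, with 6 of 7 above 0, and germ cell markers 0.02, with 8 of 12. Macrophage markers had 5 above 0 and 3 below, and mesothelial markers 1 and 1. Endothelial markers had 5 above 0 and 10 below, epithelial markers 1 and 6, and adipose tissue markers 0 and 9. None of the 10 Leydig cell markers was 2-fold apart, which at 3.28% of all genes is near the background. The part of cell proportions in the differences of Cldn11, Jam2, Gja1 and Cdh2 was not tested.

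**Figure D4:**
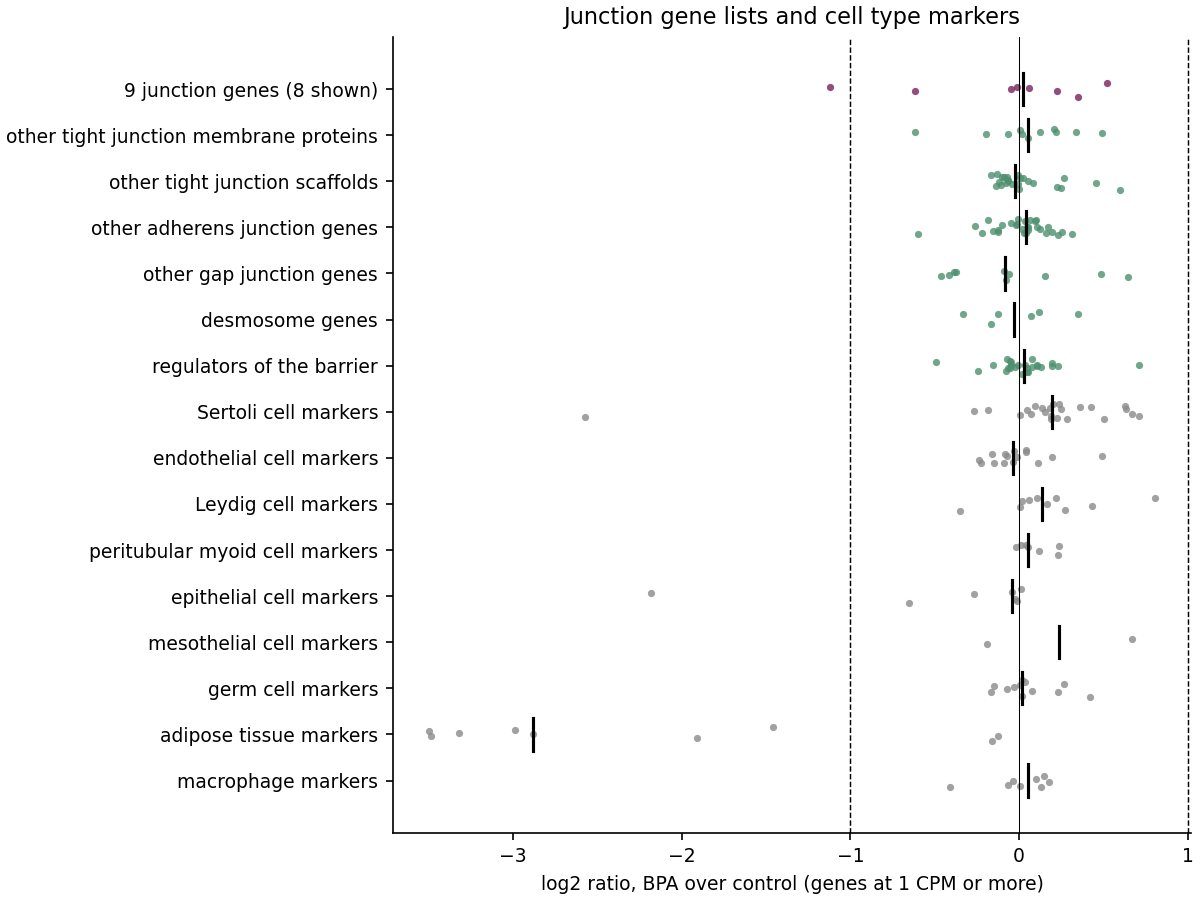
log2 ratio of BPA over control for each gene at 1 CPM or more in the junction genes (purple), the other junction and regulator lists (green) and the cell type marker lists (grey); black bars are medians and dashed lines mark 2-fold. The green lists all stay within 2-fold, the Sertoli median lies at 0.19, and the adipose median lies at -2.89.

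The surroundings of the 9 genes were not alike. Of 201 genes at 1 CPM that start within 1 Mb of one of them, by the lower coordinate of each span, 13 (6.47%) were 2-fold or more apart, beside 3.28% of all genes, and 8 of these 13 lay around Cldn5 on chromosome 16. Around the other 8 genes it was 5 of 185 neighbours (2.70%), near the share of all genes. Around Cldn5, 8 of 16 neighbours were apart, in both directions. Cdc45, a replication gene that starts 0.0036 Mb from Cldn5, stood at 2.44 CPM in the control library and 15.2 CPM in the BPA library, 6.25-fold higher (5.07 to 7.77). Mrpl40, a mitochondrial ribosome gene, stood at 5.77 and 0.529 CPM, 10.9-fold lower (7.15 to 17.3), and the histone chaperone gene Hira at 3.37 and 0.529 CPM, 6.38-fold lower (4.12 to 10.3). Ranbp1 at 2.25 and 16.4 CPM, Dgcr8 at 0.239 and 4.96 CPM, Txnrd2 at 0.0239 and 2.05 CPM and Gnb1l at 0.455 and 1.12 CPM were higher in the BPA library, and Dgcr2 at 30.5 and 2.62 CPM was lower. Ufd1 and Septin5 in the same stretch lay within 2-fold, at 25.6 and 21.2 CPM and at 17.7 and 12.8 CPM. Cldn5 itself, between such neighbours, had too few reads to place.

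None of the 14 genes near Cldn11, 19 near Ocln, 8 near Jam2, 15 near Tjp1 or 5 near Gja1 was 2-fold apart, which for numbers this small is near the background of 3.28%. Near Jam2, Gm10791 came closest, at 0.526 CPM in the control library (22 reads) and 1.15 CPM in the BPA library (52 reads), a CPM ratio of 2.18 (1.30 to 3.76) and a log2 ratio of 0.99 with the pseudocount. Near Cldn3, 2 of 44 genes were lower in the BPA library: Limk1, a kinase of actin turnover, at 21.3 and 10.03 CPM, 2.12-fold lower (1.89 to 2.38), and Gtf2ird2 at 14.2 and 5.24 CPM, 2.71-fold lower (2.33 to 3.17). Near Tjp3, 1 of 76 was apart, Gm40716 at 1.03 and 0.419 CPM. Near Cdh2, in a region with 4 measured neighbours, Gm10036 was higher at 0.622 and 1.59 CPM and 1700001G01Rik lower at 2.80 and 1.06 CPM.

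**Figure D5:**
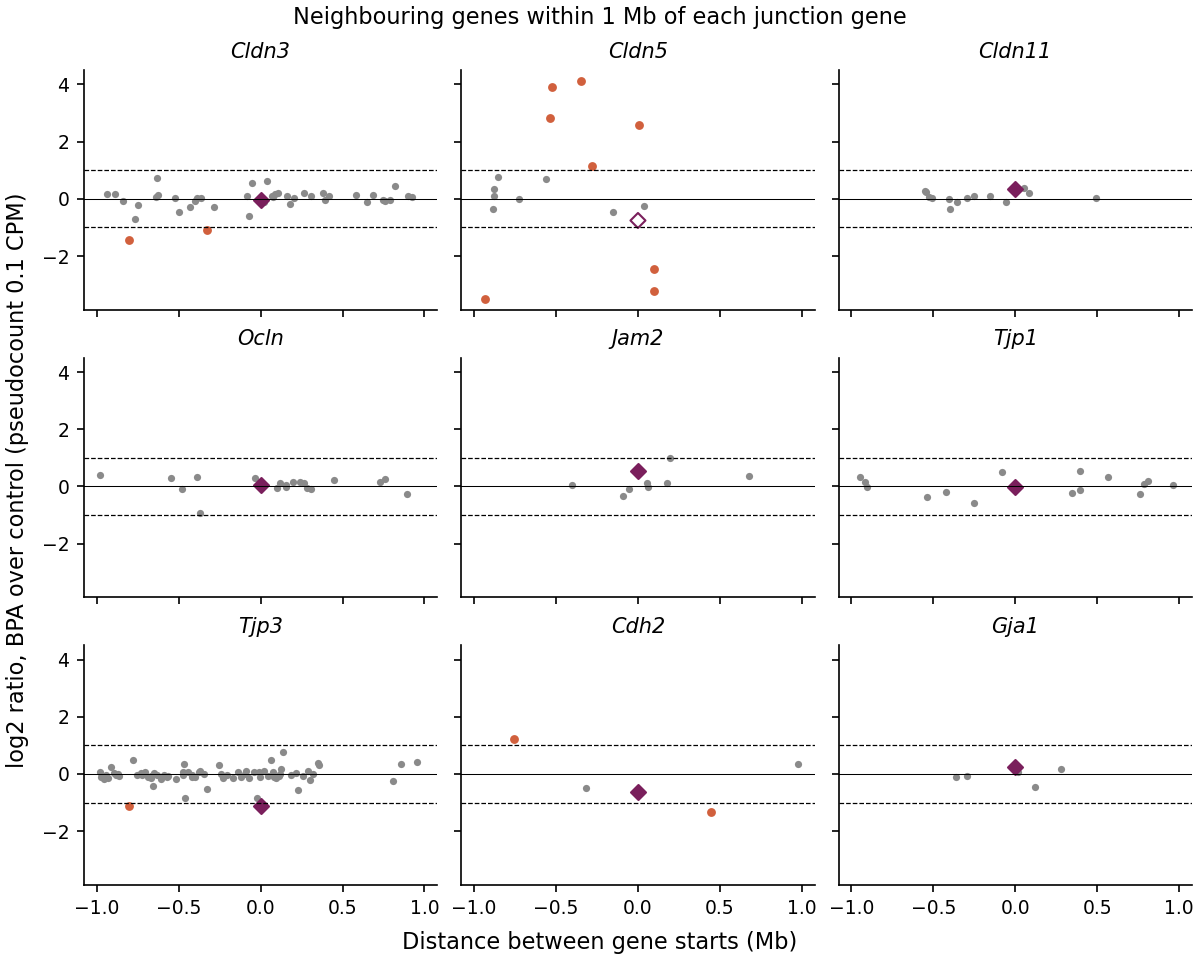
log2 ratio of BPA over control for genes at 1 CPM or more within 1 Mb of each of the 9 junction genes, by distance between gene starts in Mb (grey, within 2-fold; red, 2-fold or more apart; purple diamond, the junction gene, open for Cldn5, which is below 1 CPM). Around Cldn5, 8 of 16 neighbours are apart in both directions, and around Cldn11, Ocln, Jam2, Tjp1 and Gja1 none is by the log2 ratio with the pseudocount; near Jam2, Gm10791 lies just under the limit at 0.99.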

How the data were processed

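Per the labels' protocols, RNA was selected with oligo(dT) and primed with random hexamers, without a described strand mark. HISAT2 2.0.4, HTSeq 0.6.1 and build mm10 are named in the submitters' processing notes; how values were scaled and tested is not stated there. For each gene the authors deposited a value in either library, headed as read counts, and the log2 fold change, p-value and q-value of their comparison. The deposited values are CPM: they sum to 997834 in the control library and 995266 in the BPA library, and values under 1 are written as 0.

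Every listed CPM value was a whole multiple of 1 step (0.0239 in the control library, 0.0220 in the BPA library), taken as 1 read. A value written as 0 beside a listed one was recovered from the deposited fold change. Where both were written as 0, the deposited p-value, which follows from fold change and geometric mean CPM over 9728 genes with both values, gave whole reads within 0.1 read for 9861 of 9897 genes; this step was added after the data were seen.

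Genes reaching 1 CPM in either library were compared by log2 ratio with a pseudocount of 0.1 CPM and called at 2-fold. No test was made, since each group has 1 library. Symbols came from RefSeq of GRCm38.p6 (40269 of 41571 numeric IDs matched) and exons from GENCODE M21. The members and lists were chosen with earlier results of these data known. Named genes were the 9 members, the 2 largest log2 ratios of a junction or regulator list, up to 4 markers of a list by level or log2 ratio, and neighbours that were 2-fold apart. The JAM relatives, catenins, Apba3, Gm10791, Ufd1, Septin5, Dsg2, Cldn2, Cldn10, Gjb6 and Upk3b were named after their values were seen. The epithelial list was also given whole after its values were seen. Pecam1 was named outside the rule, since other endothelial markers had higher levels and larger log2 ratios. Some genes that this rule would name are not reported here. Python 3.11.15, pandas 2.3.3, NumPy 2.4.6 and SciPy 1.17.1 were used, and the size rule was tested on simulated data.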

Additional observations from a re-analysis of the deposited data

How the results depend on the processing

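No paired analysis was possible because each group has 1 library, and no replicate could be left out. Of the 8 genes at 1 CPM, 1 was 2-fold apart. This count became 0 with a pseudocount of 1 CPM, at 4-fold, with a floor of 4 CPM and on the nearer interval bound. At 1.5-fold it became 2. Among the other junction genes the count of 0 became 4 at 1.5-fold (Cldn13, Amotl2, Cdh3 and Gja6) and 2 with listed zeros as 0. Over all genes, 256 were higher and 379 lower; these became 82 and 123 with a pseudocount of 1 CPM, 686 and 937 with listed zeros as 0, 828 and 1042 at 1.5-fold, 55 and 85 at 4-fold, 80 and 103 with a floor of 4 CPM, 100 and 162 on the nearer bound, and 172 and 531 when scaled to the Sertoli marker median. Within 0.5 Mb of the 9 genes, 7 of 121 neighbours were apart in place of 13 of 201. With listed zeros as 0 the log2 ratio of Tjp3 was -3.92. With the TMM or the median ratio scaling all 8 log2 ratios stayed inside their counting intervals. Scaled to the Sertoli marker median, 6 of the 8 lay outside them. These settings differ in the genes kept, the limit, the pseudocount, the handling of listed zeros, the scaling or the distance to neighbours. The cause was not tested further. Depth limits Cldn5, at 8 reads in all, and Tjp3, at 86.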
